A study of Mus musculus with 4 samples.

Results

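The immune and microglial miRNAs described here are 8 mature mouse (mmu) miRNAs, mmu-miR-21a-5p, mmu-miR-142a-3p, mmu-miR-142a-5p, mmu-miR-146a-5p, mmu-miR-146b-5p, mmu-miR-150-5p, mmu-miR-155-5p and mmu-miR-223-3p. They were chosen by name as miRNAs known from blood and immune cells, microglia or the inflammatory response, and are 8 of the 1038 known mouse miRNAs measured. Small RNA was sequenced from the medial prefrontal cortex of C57BL/6 mice (C57BL/6J in the study's methods), with 2 control libraries and 2 libraries of mice under chronic unpredictable mild stress (CUMS). The mice were juvenile males used from postnatal day 21, and after 1 week of adaptation the CUMS mice received varied mild stressors in unpredictable order for 3 weeks while the controls were left without them. The CUMS mice taken for sequencing were those with depression-like changes in all 3 behavior tests, so they are a selected subset of the stressed animals. RNA was isolated from both sides of the cortex of each mouse. The question was whether the level of any of these miRNAs differed between the CUMS and control libraries.

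A miRNA is a short RNA that pairs through its seed, near its 5′ end, with target mRNAs and lowers their translation or stability. miR-142 is made throughout the blood cell lineages, miR-223 mainly in myeloid cells and miR-150 mainly in mature lymphocytes, whereas miR-146a, miR-155 and miR-21 are also induced by inflammatory signals in many cells. Microglia, the resident macrophages of the brain, are a small share of cortical cells, and blood left in the vessels adds its own leukocytes to a tissue sample.

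The mature sequences are shown because they set how the miRNAs are grouped and how reads of related miRNAs are told apart. They are RefSeq sequences of build GRCm38.p6, found for 7 of the 8 miRNAs, written 5′ to 3′ with the seed (bases 2 to 8) in capitals. The pair of miR-146 genes shares a seed.
miR-146a-5p: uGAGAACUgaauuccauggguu
miR-146b-5p: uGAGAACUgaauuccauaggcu
The other 5 each have a seed of their own among these 7.
miR-21a-5p: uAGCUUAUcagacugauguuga
miR-142a-5p: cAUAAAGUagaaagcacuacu
miR-142a-3p: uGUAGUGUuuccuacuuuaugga
miR-155-5p: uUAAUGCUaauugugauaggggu
miR-223-3p: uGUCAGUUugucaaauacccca
Counted from 1 at the 5′ end, miR-146b-5p differs from miR-146a-5p by G18A and U21C. Their first 17 bases are the same, and the shortest read matched to a precursor was 18 nt. Reads were matched without mismatch, so a read that starts at base 1 of either miRNA reaches at least the first difference. The miR-142a arms come from the same hairpin, shown with both arms in capitals, the 5p arm first.
Mir142 hairpin: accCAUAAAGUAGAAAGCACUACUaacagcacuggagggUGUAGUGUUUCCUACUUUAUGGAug
The hairpin has 64 bases, with 15 bases between the arms.

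The genes of these 7 miRNAs lie on chromosomes 11, 16, 19 and X, with 3 genes on chromosome 11. On build GRCm38, miR-21a-5p is at chr11:86584120-86584141 on the minus strand, in an exon of the protein-coding gene Vmp1 in GENCODE M21. miR-142a-5p is at chr11:87756867-87756887 and miR-142a-3p at chr11:87756903-87756925, both on the plus strand in an intron of the long noncoding RNA gene Mir142hg. The same stretch is annotated on the opposite strand as the miRNA gene Mir142b. miR-146a-5p is at chr11:43374435-43374456 on the minus strand, where GENCODE M21 lists no gene besides the miRNA. miR-146b-5p is at chr19:46342790-46342811 on the plus strand, in an intron of the protein-coding gene Mfsd13a. miR-155-5p is at chr16:84714143-84714165 on the plus strand in an exon of the long noncoding RNA gene Mir155hg. miR-223-3p is at chrX:96242884-96242905 on the plus strand in an exon of the noncoding gene F630028O10Rik.

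The reads of single libraries were recovered from the deposited group means, and in each group 100% of the 1038 means resolved into whole reads at a relative tolerance of 1e-09. The letters a and b only separate the libraries of a group and are not replicate numbers. The depth was 10533646 reads on known miRNAs in control a, 10783592 in control b, 10427625 in CUMS a and 9589323 in CUMS b. Levels are given as reads scaled to 1000000 of these reads per library (CPM), and 3 reads, taken as the floor, are 0.285, 0.278, 0.288 and 0.313 CPM in the same order. Without molecular identifiers on the reads, intervals and floors speak to counting error alone. Neuronal miRNAs marked the tissue as brain: 6 of 6 listed were measured in every library, led by miR-9-5p with 59915, 46545, 55613 and 71859 CPM in control a, control b, CUMS a and CUMS b.

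Together the 8 miRNAs took 28106 reads (0.267%) in control a, 25079 (0.233%) in control b, 21101 (0.202%) in CUMS a and 24975 (0.260%) in CUMS b. The summed level was lowest in CUMS a, and CUMS b lay between the control libraries. By mean CPM the order was miR-21a-5p at 1179, miR-146b-5p at 707, miR-150-5p at 304, miR-142a-5p at 133, miR-146a-5p at 75.7, miR-142a-3p at 4.85, miR-223-3p at 1.17 and miR-155-5p at 0.218. Neighbours in this order did not overlap in their CPM over the 4 libraries, except miR-223-3p and miR-155-5p. The first 3 held between 90.1% and 92.0% of the reads of the 8 in each library. Among all 1038 miRNAs, miR-21a-5p ranked 67, miR-146b-5p 81, miR-150-5p 115, miR-142a-5p 157, miR-146a-5p 186, miR-142a-3p 360, miR-223-3p 496 and miR-155-5p 705. The plot of levels by library shows this span and the widening of the counting intervals at its lower end.

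**Figure D1:**
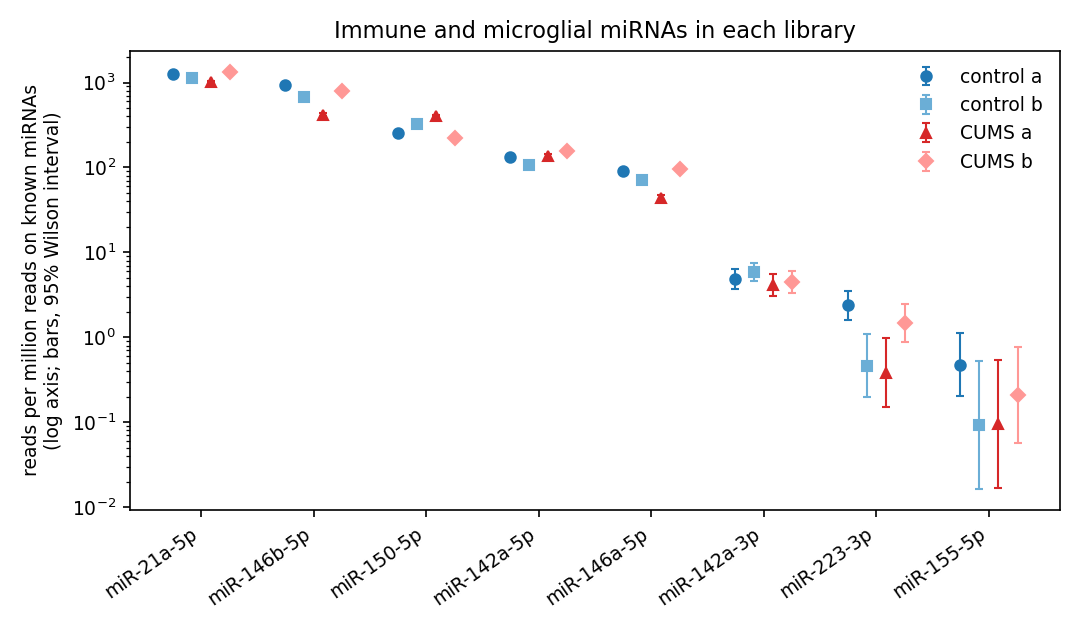
Level of each of the 8 miRNAs in the 4 libraries, in CPM of reads on known miRNAs on a log axis, ordered by mean. Points are single libraries and bars are 95% Wilson intervals for counting error. The mean runs from 1179 CPM for miR-21a-5p to 0.218 CPM for miR-155-5p.

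The miR-146 pair, of which miR-146a is induced through NF-kB and represses the proteins TRAF6 and IRAK1 in a negative feedback, had its lowest values in 1 CUMS library. For mmu-miR-146b-5p, 9854 reads were counted in control a, 7260 in control b, 4386 in CUMS a and 7667 in CUMS b. Division by the size factors gave 9639 and 7257 normalized counts for the controls, and 4130 and 8123 for CUMS. CUMS a was far below the other 3 libraries, while CUMS b lay between the control libraries, so the groups overlapped. For mmu-miR-146a-5p, the reads were 960 in control a, 774 in control b, 456 in CUMS a and 922 in CUMS b. In normalized counts CUMS a, at 429, was again the lowest, and CUMS b, at 977, was above both control libraries, at 939 and 774. The log2 fold change of CUMS against control was -0.53 for miR-146b-5p (95% confidence interval -1.32 to 0.26, adjusted p = 0.835 by limma). For miR-146a-5p it was -0.40 (-1.31 to 0.52, adjusted p = 0.886). Neither difference passed the test. Both estimates rest on CUMS a: without it the log2 fold change was -0.04 for miR-146b-5p and 0.20 for miR-146a-5p, and without CUMS b it was -1.02 and -0.99. In bulk tissue, fewer cells that make a miRNA and less of it per cell cannot be told apart.

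mmu-miR-155-5p, which is induced in activated macrophages and lymphocytes and promotes inflammation, was at the edge of detection. It had 5 reads in control a, 1 in control b, 1 in CUMS a and 2 in CUMS b. Control a was the only library above the floor of 3 reads, and it alone carried this miRNA past the filter of at least 5 reads in at least 1 library. The group means, 2.95 normalized counts in control and 1.53 in CUMS, were both under 3, so no fold is given. A difference in miR-155-5p was not detectable at this depth.

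mmu-miR-21a-5p, made in many cell types and raised in injury and inflammation, was the most abundant of the 8 in every library. It had 13124 reads in control a, 12269 in control b, 10537 in CUMS a and 12686 in CUMS b. As normalized counts, the controls had 12837 and 12264 and the CUMS libraries 9921 and 13441. The CUMS libraries lay on either side of the control libraries, which were close to each other. The log2 fold change was -0.12 (-0.56 to 0.32, adjusted p = 0.925 by limma), with 0.10 without CUMS a and -0.34 without CUMS b.

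The miR-142a arms, both known from all blood lineages, differed in level and in the sign of their estimates. For mmu-miR-142a-5p, 1386 reads were counted in control a, 1165 in control b, 1436 in CUMS a and 1483 in CUMS b. In normalized counts CUMS b was the highest at 1571 and control b the lowest at 1165, with CUMS a at 1352 just under control a at 1356. The log2 fold change of the 5p arm was 0.21 (-0.21 to 0.64, adjusted p = 0.880), with 0.10 without control b, 0.11 without CUMS b and 0.32 without either of the others. For mmu-miR-142a-3p the reads were 51 in control a, 64 in control b, 43 in CUMS a and 43 in CUMS b. Its normalized counts, 49.9 and 64.0 in control and 40.5 and 45.6 in CUMS, did not overlap between the groups. The counting intervals did overlap, from 4.65 to 7.58 CPM in control b, the highest library, and from 3.06 to 5.55 CPM in CUMS a, the lowest. The log2 fold change of the 3p arm was -0.39 (-1.13 to 0.36, adjusted p = 0.869), lower in both CUMS libraries than in both control libraries. Without control b it was -0.21. The two-sided exact permutation p of the 3p arm was 0.333, the smallest that 2 libraries against 2 can give.

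mmu-miR-223-3p, the miRNA typical of neutrophils and other myeloid cells, had few reads and a wide spread. It had 25 reads in control a, 5 in control b, 4 in CUMS a and 14 in CUMS b. Each group held a library with more than 10 reads and a library with 5 or fewer, so the spread within a group was larger than the difference of the group means, 14.7 and 9.30 normalized counts. The Wilson interval of control a, from 1.61 to 3.50 CPM, lay above that of CUMS a, from 0.149 to 0.986 CPM, but overlapped that of CUMS b, from 0.870 to 2.45 CPM. It also lay above that of control b, from 0.198 to 1.09 CPM, so the same separation was present within the control group. The log2 fold change was -0.51 with an interval from -2.73 to 1.71 (adjusted p = 0.943 by limma). It was 0.53 without control a, -1.55 without control b, 0.36 without CUMS a and -1.37 without CUMS b.

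mmu-miR-150-5p, a lymphocyte miRNA that represses the transcription factor c-Myb, followed another order of libraries. It had 2701 reads in control a, 3541 in control b, 4238 in CUMS a and 2158 in CUMS b. Normalized, the controls stood at 2642 and 3540 and the CUMS libraries at 3990 and 2286. The highest and the lowest library were both CUMS libraries, with the control libraries between them. The log2 fold change was -0.02 by limma (-0.72 to 0.69, adjusted p = 0.982), and its sign turned with the tool, to 0.02 by DESeq2. With a library left out it was between -0.42 and 0.38.

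Across the 719 miRNAs that passed the filter, limma called 0 (0%) at an adjusted p under 0.05 and 28 (3.89%) at an unadjusted p under 0.05, and 0 of the 8 in both. edgeR called 0 (0%) and 30 (4.17%), and DESeq2 0 (0%) and 24 (3.34%), again with 0 of the 8 at either level. Both CUMS libraries lay above both control libraries for 120 miRNAs (16.7%) and for 0 of the 8. They lay below for 123 miRNAs (17.1%) and for 1 of the 8, miR-142a-3p, a share near that of all miRNAs. Of the 7 miRNAs above the floor, that is without miR-155-5p, the estimate was lower in CUMS for 6 and higher for miR-142a-5p. The count of 6 moved with the libraries and the scaling: it was 5 with DESeq2, with the library total, and without control a, control b or CUMS b, and 3 without CUMS a. The median log2 fold change of the 7 was -0.39, against 0.00 over the 719, of which 50.5% were higher in CUMS. Without CUMS a the median of the 7 was 0.10, without control a it was -0.23, and without control b it was -0.21. Without CUMS b, 2 of the 8, miR-146a-5p and miR-146b-5p, were called by limma at an unadjusted p under 0.05, against 32 of the 719, and 0 of the 719 at an adjusted p under 0.05. The p-values measure the spread between these 4 libraries, and with 2 per group the intervals are wide, as the plot of differences shows.

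**Figure D2:**
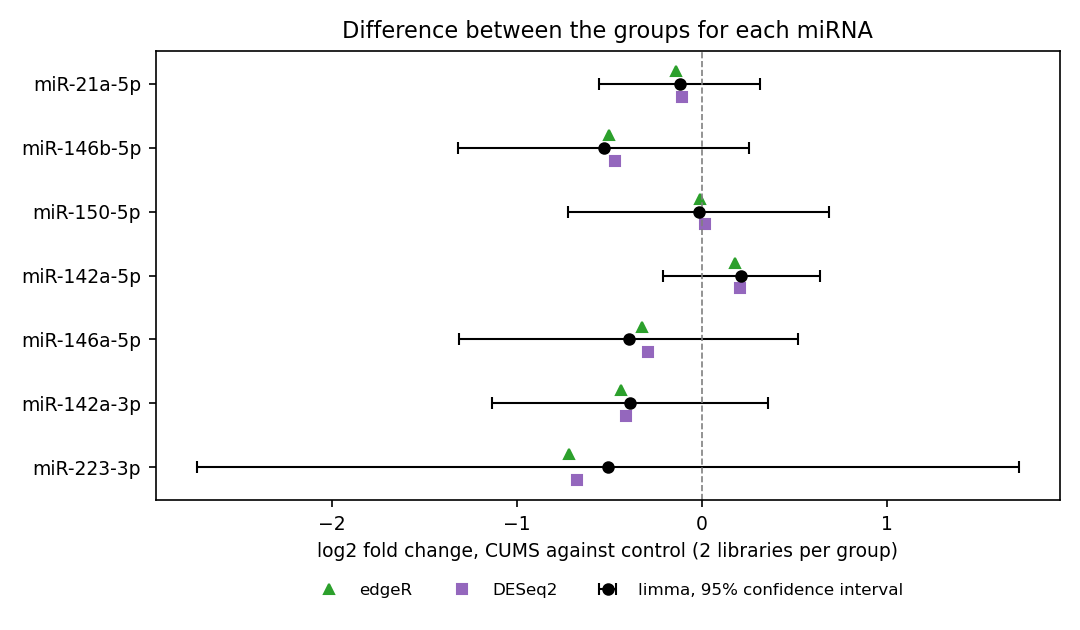
Log2 fold change of CUMS against control for the 7 miRNAs above the floor, with limma estimates as circles and their 95% confidence intervals, edgeR as triangles and DESeq2 as squares. All 7 intervals include 0, and the widest is that of miR-223-3p, from -2.73 to 1.71.

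The spread over libraries differed among the 8, and among the 7 above the floor it was widest for miR-223-3p. The ratio of the highest to the lowest normalized count over the 4 libraries was 6.49 for miR-223-3p and 1.58 for miR-142a-3p. No ratio is given for miR-155-5p, whose lowest library, CUMS a, had 1 read, under the floor of 3 reads. These 3 had means under 50 normalized counts. Among the other 5 it was 2.33 for miR-146b-5p, 2.28 for miR-146a-5p, 1.75 for miR-150-5p, 1.35 for miR-21a-5p and 1.35 for miR-142a-5p. Over the 358 miRNAs with a mean of at least 50 normalized counts and reads in every library, the median ratio was 1.36. A wider range than that of miR-146b-5p was seen for 5.59% of them, and a wider one than that of miR-146a-5p for 5.87%. The corresponding shares were 16.2% for miR-150-5p, 51.7% for miR-21a-5p and 53.6% for miR-142a-5p. Within the CUMS group alone, the higher library had 2.28 times the lower one for miR-146a-5p and 1.97 times for miR-146b-5p, against a median of 1.19.

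On the log2 scale, CUMS a stood at -0.79 from the mean of the 4 libraries for miR-146a-5p, at -0.75 for miR-146b-5p and at -0.28 for miR-21a-5p. The same library stood at 0.39 for miR-150-5p, its highest. CUMS b was the reverse, at 0.39 for miR-146a-5p and -0.41 for miR-150-5p. The plot of deviations sets these beside miR-342-3p, the most abundant of 5 other measured miRNAs of lymphoid and myeloid cells. miR-342-3p was also highest in CUMS a, but none of the other 4 was.

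**Figure D3:**
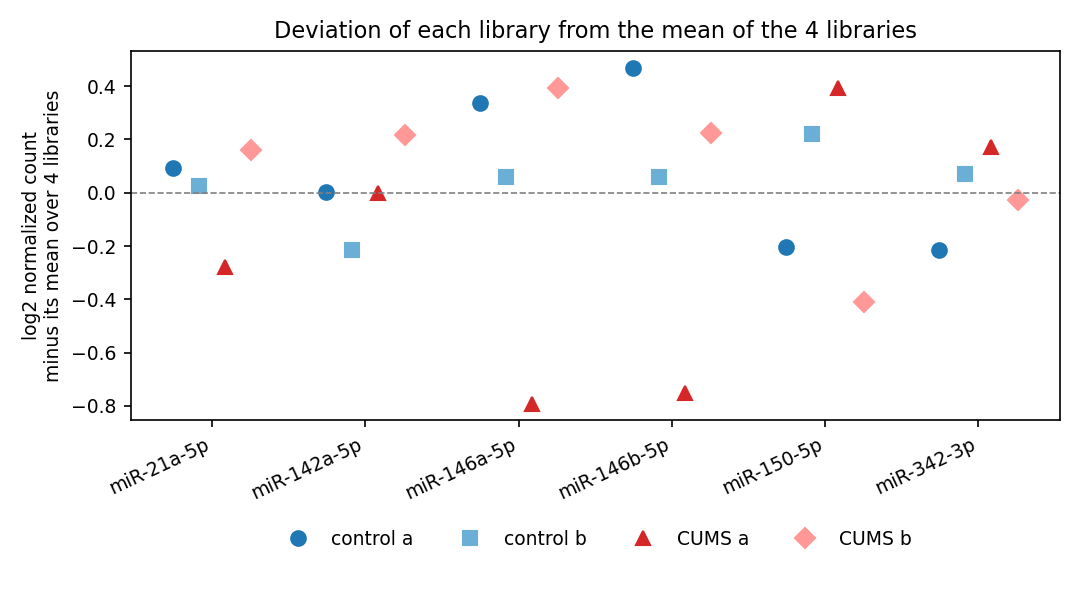
Deviation of each library from the mean of the 4 libraries, in log2 normalized counts, for the 5 immune miRNAs with a mean of at least 50 normalized counts and for miR-342-3p. Points are single libraries. CUMS a is the lowest library for miR-21a-5p, miR-146a-5p and miR-146b-5p and the highest for miR-150-5p and miR-342-3p.

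The miRNAs nearest in pattern were sought for the miR-146 pair, the widest-ranging of the 5 with a mean of at least 50, by the Euclidean distance of centred log2 normalized counts over the 4 libraries, among 357 others. For miR-146b-5p these were miR-10a-5p at a distance of 0.22, miR-146a-5p at 0.22 and miR-382-3p at 0.35. For miR-146a-5p they were miR-146b-5p at 0.22, miR-10b-5p at 0.29 and miR-19b-3p at 0.34. Each of the miR-146 pair was thus among the 3 nearest to the other, although they are encoded on different chromosomes. miR-10a-5p had 4251, 3316, 1765 and 2858 reads in control a, control b, CUMS a and CUMS b, and miR-10b-5p had 8547, 5929, 3285 and 8445. The low value in CUMS a follows from the choice by distance.

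Shares of reads within a pair do not depend on the size factors. Of the reads on both miR-142a arms, the 5p arm held 96.5% (95% Wilson interval 95.4% to 97.3%) in control a and 94.8% (93.4% to 95.9%) in control b. It held 97.1% (96.1% to 97.8%) in CUMS a and 97.2% (96.2% to 97.9%) in CUMS b. Reads of this hairpin were thus almost all from the 5p arm, and the share was above both control libraries in both CUMS libraries. The group means were 95.6% ± 1.17 (SD, n = 2) in control and 97.1% ± 0.0633 (SD, n = 2) in CUMS, with a two-sided exact permutation p of 0.333. The difference was 1.52 percentage points, and 0.686 without control b. The interval of control a overlapped those of both CUMS libraries.

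Of the reads on the pair of miR-146 5p arms, miR-146b-5p held 91.1% in control a, 90.4% in control b, 90.6% in CUMS a and 89.3% in CUMS b. The ratio of miR-146b-5p to miR-146a-5p was thus between 8.32 and 10.3 in every library, while each of them varied more than 2-fold. The share in CUMS b was the lowest, and its interval, 88.6% to 89.9%, lay under that of control a, 90.6% to 91.6%. The group means, 90.7% ± 0.535 (SD, n = 2) in control and 89.9% ± 0.931 (SD, n = 2) in CUMS, differed by less than 1 percentage point, with overlapping groups (two-sided exact permutation p = 0.667).

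**Figure D4:**
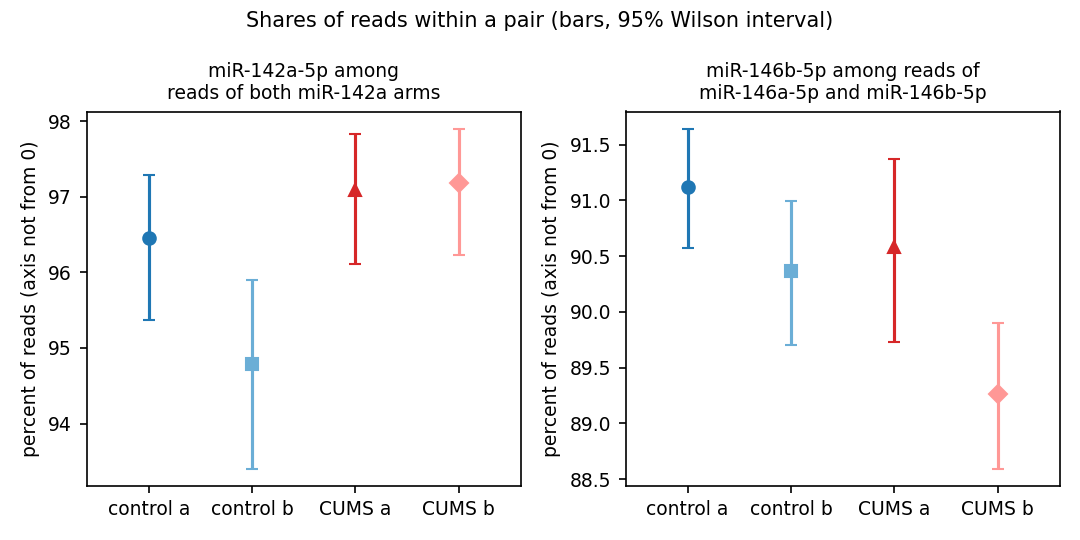
Share of miR-142a-5p among reads of both miR-142a arms (left) and of miR-146b-5p among reads of miR-146a-5p and miR-146b-5p (right), in percent, with 95% Wilson intervals for each library. The axes do not start at 0. The miR-142a-5p share lies between 94.8% and 97.2% and the miR-146b-5p share between 89.3% and 91.1%.

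The passenger arms of the other precursors were rare, with 5 of 6 listed measured and a summed level of 6.84 CPM in control a, 4.64 in control b, 4.99 in CUMS a and 3.65 in CUMS b. The most abundant was miR-21a-3p, with 62 reads in control a, 40 in control b, 45 in CUMS a and 22 in CUMS b. The 5p arm of miR-21a held between 99.5% and 99.8% of the reads of its precursor, and that of miR-150 likewise between 99.5% and 99.8%. miR-146b-3p and miR-155-3p had 1 read each over the 4 libraries. For miR-223, the passenger arm had 4 reads in all, too few for a comparison of shares.

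Other miRNAs of myeloid and lymphoid cells were measured for 5 of 6 listed, with a summed level of 510 CPM in control a, 572 in control b, 663 in CUMS a and 559 in CUMS b. The most abundant was miR-342-3p, with 4435 reads in control a, 5295 in control b, 6020 in CUMS a and 4660 in CUMS b, highest in CUMS a and control b as miR-150-5p was. The other arm of this precursor did not follow that order: miR-342-5p had 903 and 866 normalized counts in the controls against 846 and 722 in CUMS. It was thus lower in each CUMS library than in either control, as for 17.1% of all miRNAs tested. In CPM this did not hold, with 86.1 in CUMS a and 80.3 in control b. The CPM of control b is lowered by the epithelial cluster miRNAs described below, which took 93217 CPM of its total. The CPM order of these libraries therefore depends on that total. For miR-342-3p the log2 fold change was 0.14 (-0.26 to 0.55, adjusted p = 0.886 by limma). miR-511-5p, known from macrophages, had 4, 2, 0 and 0 reads in control a, control b, CUMS a and CUMS b, and miR-147-3p, induced by Toll-like receptor signals, had 2, 1, 0 and 13. The 3 at 0 reads in a library were these and miR-511-3p, with 5, 1, 0 and 4 reads. Of the 4 that passed the filter, 2 had higher and 2 lower estimates in CUMS, and 0 were called by limma at an adjusted or an unadjusted p under 0.05.

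Markers of other tissue parts were measured in the same libraries, and their part in the differences between libraries was not tested. Red cell miRNAs (5 of 5 measured) were led by miR-486a-5p and miR-486b-5p, which had nearly the same reads in every library, 121988 and 122275 in control a, so that a sum over both may count reads more than once. The 5 summed to 23239 CPM in control a, 21368 in control b, 23283 in CUMS a and 26542 in CUMS b, and to 11631, 10693, 11679 and 13323 CPM without miR-486b-5p. All 5 had higher estimates in CUMS by limma. In normalized counts CUMS a was the lowest library for 4 of the 5, with miR-486a-5p at 114199 in CUMS a and 114791 in control b, the next library, and miR-144-5p at 77.2 and 94.96. Endothelial and mural cell miRNAs (4 of 4, led by miR-143-3p) summed to 30214, 20687, 22170 and 30331 CPM in the same order. The sum is almost all miR-143-3p, with 297462, 210103, 204512 and 293168 normalized counts, lowest in CUMS a and in the same order of libraries as miR-146b-5p. The other 3 had other orders: miR-126a-3p was highest in control b, at 1868 normalized counts, and miR-126a-5p and miR-145a-5p were highest in CUMS b, at 13174 and 231. Oligodendrocyte miRNAs (3 of 3, led by miR-338-3p) summed to 765, 776, 628 and 722 CPM, lowest in CUMS a as were miR-21a-5p and the miR-146 pair. Choroid plexus miRNAs (2 of 2, led by miR-204-5p) summed to 1644, 2042, 1625 and 1243 CPM. This sum is almost all miR-204-5p, which was highest in control b. The other, miR-211-5p, was highest in control a, at 12.1 CPM, against 1.85 in control b, 8.82 in CUMS a and 1.77 in CUMS b. Of these lists, 0 members were at 0 reads in any library.

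Control b stood apart in the epithelial cluster miRNAs (8 of 8 measured, 2 of them at 0 in a library), which summed to 393 CPM in control a, 93217 in control b, 503 in CUMS a and 721 in CUMS b. The list holds miR-182-5p, miR-183-5p, miR-96-5p, miR-200a-3p, miR-200b-3p, miR-200c-3p, miR-141-3p and miR-429-3p. Their cell of origin was not tested. The sum in control b is almost all miR-182-5p, at 89223 CPM. This most abundant of them had 962144 reads in control b and between 3931 and 6566 in the other libraries. These reads enlarge the total of control b, so its CPM of every other miRNA is lower. With the library total as the scale, the median log2 fold change of the 7 was -0.31 and that of miR-150-5p turned to 0.06. With the epithelial cluster miRNAs taken out of the total the median was -0.38, against -0.39 with size factors. The plot of summed levels shows the lists side by side.

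**Figure D5:**
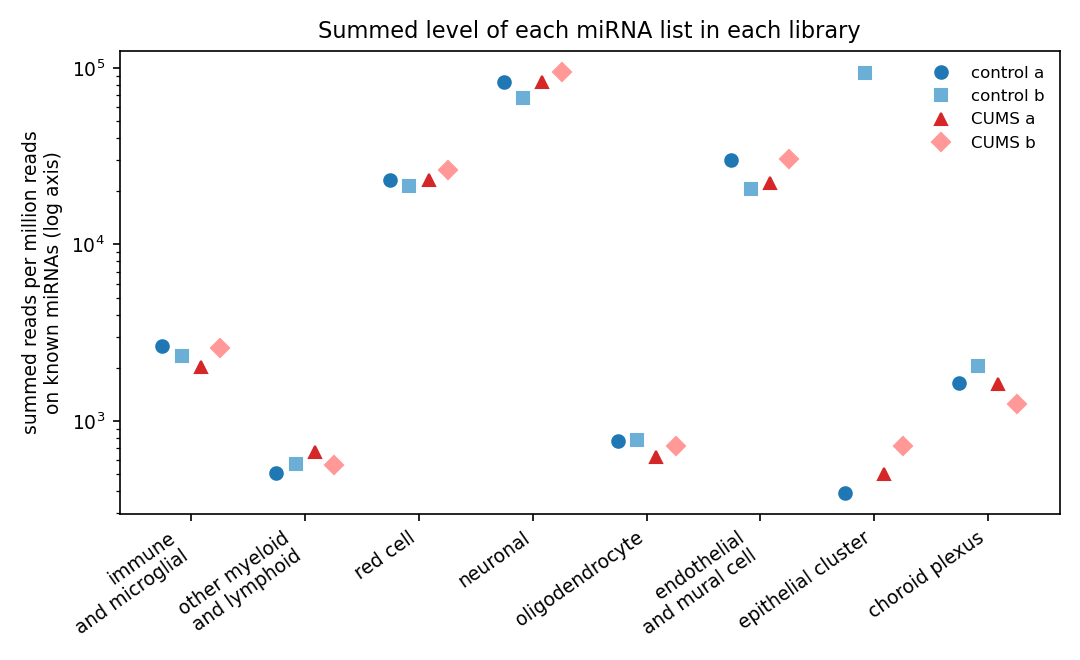
Summed level of each list of miRNAs in the 4 libraries, in CPM of reads on known miRNAs on a log axis. Points are single libraries. The immune and microglial miRNAs lie between 2024 and 2668 CPM, and the epithelial cluster miRNAs are at 93217 CPM in control b and between 393 and 721 CPM in the other libraries.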

How the data were processed

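Small RNA of the medial prefrontal cortex was measured in 2 control and 2 CUMS libraries. The authors matched clean reads of 18 to 25 nt to mouse precursors of miRBase without mismatch and counted those overlapping a mature miRNA by at least 16 nt. The submitters' processing notes name Bowtie, DESeq and mm10. For each miRNA the authors deposited a signal per group, namely its reads divided by the DESeq size factor of the library and averaged over the 2 libraries. The columns were assigned to control and CUMS by the headings under which the paper prints their values. The table also holds the authors' fold change, its log2, a p-value and an adjusted p-value for each miRNA, which were not used. Whole reads of each library were recovered as the pair of whole numbers that, times 2 steps, gives each mean. In each group 100% of the 1038 means resolved at a relative tolerance of 1e-09, and for 2 control values another pair came near. Size factors recomputed from these reads were 1.02, 1.00, 1.06 and 0.944 for control a, control b, CUMS a and CUMS b, equal to those in the steps.

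The test was limma 3.58.1 (trend, empirical Bayes, two-sided) on log2(normalized count + 1) of the 719 miRNAs that reached 5 reads in 1 or more libraries, with Benjamini-Hochberg adjustment over all of them. Fold changes are on this scale, which understates those of low miRNAs. All 8 members passed the filter, so no count over passing members is given as support. On the recovered reads, R 4.3.3 with edgeR 4.0.16 (quasi-likelihood test, TMM) and with DESeq2 1.42.0 (Wald test) gave the alternatives, beside other pseudocounts, filters and scalings and leaving out each library. Single values were compared by two-sided exact permutation over libraries, which with 2 against 2 cannot go below 0.333. Scripts were tested on simulated data. Python 3.11.15, numpy 2.4.6, pandas 2.3.3, scipy 1.17.1 and matplotlib 3.10.9 were used, with Wilson intervals at 95%. Sequences were taken from RefSeq and host genes from GENCODE M21 on GRCm38.

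The miRNAs named were the 8 members, their passenger arms and lists of other cell types. To these were added the 3 miRNAs nearest in pattern to each of the 2 members with the widest range, with means of 50 or more required of members and neighbours. Of 359 such miRNAs, 1 with 0 reads in a library was left out of ranges and distances. The members and lists were chosen with earlier results of these data known.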

Additional observations from a re-analysis of the deposited data

How the results depend on the processing

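limma under each pseudocount, filter, scaling and left-out library, and edgeR and DESeq2 in 1 fit each, called 0 miRNAs at an adjusted p under 0.05, against 10 to 58 at an unadjusted p under 0.05. The number of members called at an unadjusted p under 0.05 was 0 in these fits except the one without CUMS b, so it ranged from 0 to 2 when each library was left out. Of 82 alternative log2 fold changes of the 7 members above the floor, 74 kept their direction and 8 changed it; miR-155-5p has no fold. For miR-150-5p the value was 0.017 with DESeq2, 0.060 with CPM of the library total, and between -0.42 and 0.38 when each library was left out. With a library left out, the value ranged from -0.34 to 0.10 for miR-21a-5p, from -0.99 to 0.20 for miR-146a-5p and from -1.55 to 0.53 for miR-223-3p, with the lone library of a group assumed to vary like the others. The cause was not tested. The signs of miR-142a-3p, miR-142a-5p and miR-146b-5p were kept under the alternatives run, but with a library left out the values ranged from -0.56 to -0.21, from 0.10 to 0.32 and from -1.02 to -0.04. The 5p share of miR-142a was higher in CUMS by 0.686 to 2.35 percentage points when each library was left out.

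With a mean of at least 50 normalized counts as the filter, miR-142a-3p, miR-155-5p and miR-223-3p gave no value. No paired analysis was possible because the recovered libraries carry no replicate number. miR-155-5p had 9 reads over the 4 libraries and is limited by depth. miR-223-3p had 48, and its control libraries differed beyond their counting intervals.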

Other observations

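Among the lists of other cell types, the 3 oligodendrocyte miRNAs had fewer normalized counts in each CUMS library than in either control, as had 123 of all 719 miRNAs tested (17.1%). In CPM this did not hold for miR-219a-5p, at 18.1 in CUMS b and 17.8 in control b. The epithelial cluster miRNAs, at 93217 CPM in control b, lower its CPM of other miRNAs, so this order depends on that total. For miR-219a-2-3p, which promotes oligodendrocyte differentiation, 3412 reads were counted in control a, 3296 in control b, 2369 in CUMS a and 2792 in CUMS b, with a log2 fold change of -0.37 (-0.81 to 0.07, adjusted p = 0.835 by limma). For the neuronal miRNA miR-124-3p the reads were 26501 in control a, 23152 in control b, 31217 in CUMS a and 33239 in CUMS b, with a log2 fold change of 0.39 (0.02 to 0.77, adjusted p = 0.835). Neither passed the adjusted test, although the groups did not overlap in either case. All 6 neuronal miRNAs had higher estimates in CUMS, 2 of them with each CUMS library above either control, against 50.5% of the 719 with higher estimates and 16.7% with both CUMS libraries above.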
